A study of Homo sapiens with 8 samples.

Results

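The alpha and beta tubulin isotypes are separate genes whose protein products pair as the building block of microtubules. The genes were chosen by symbol: TUBA1A, TUBA1B, TUBA1C, TUBA4A, TUBB, TUBB1, TUBB2A, TUBB3, TUBB4B and TUBB6. Of these 10 genes, 9 had a probe set under their symbol, among 17687 genes measured, and TUBB3 is named only. RNA was measured on 8 expression arrays, 1 for each of 4 treatments in K562 and in KBM5, 2 human lines of chronic myeloid leukaemia. In each line the treatments were the combination (OR21, then IM), IM alone (imatinib, 1000 nM for 24 hours), OR21 alone (100 nM for 3 days) and control (no exposure). The OR21 dose of the combination was taken from the treatment protocol. The series title calls OR21 a demethylating agent, and the stated aim was to find expression changes of the combination. Imatinib inhibits BCR-ABL1, the fusion kinase on which these leukaemia cells depend. Both lines are single established lines, and each line and treatment had 1 array, with no repeat culture.

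Microtubules form the mitotic spindle and the tracks of intracellular transport, and most dividing cells build them from a few widely expressed isotypes. TUBA1B, TUBA1C, TUBB and TUBB4B are such isotypes and are treated here as the proliferation-linked ones. TUBB1 is the beta tubulin of platelets and their precursors, the megakaryocytes, where it forms the marginal band that gives the platelet its disc shape. TUBA4A is an alpha tubulin that is also known from platelets. TUBA1A and TUBA1C differ little from TUBA1B in their coding sequence. The probe sequences were not used here, so signal of one isotype on the probes of another was not tested.

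The alpha tubulin genes TUBA1A, TUBA1B and TUBA1C lie together on human chromosome 12 (GRCh38.p14, RefSeq), and the other measured members are spread over 5 chromosomes: TUBA4A on chromosome 2, TUBB and TUBB2A on chromosome 6, TUBB4B on chromosome 9, TUBB6 on chromosome 18 and TUBB1 on chromosome 20. TUBB1 occupies chr20:59016438-59026654, TUBB chr6:30720352-30725422 and TUBB4B chr9:137241287-137243707. All 9 measured genes matched the RefSeq promoter table, with 13 start sites. The 250 bases before the start of TUBB1, TUBB and TUBB4B are printed because TUBB1 was the isotype that rose with IM, TUBB the one that fell the furthest, and TUBB4B the one lowered over both lines. The windows are chr20:59019179-59019428, chr6:30720102-30720351 (the first of 2 start sites of TUBB) and chr9:137241037-137241286, all on the plus strand. The TUBB1 window lies inside the RefSeq span of the gene, downstream of its first base. Capitals mark CCAAT, the CCAAT box, read on either strand (ATTGG on the other).
TUBB1: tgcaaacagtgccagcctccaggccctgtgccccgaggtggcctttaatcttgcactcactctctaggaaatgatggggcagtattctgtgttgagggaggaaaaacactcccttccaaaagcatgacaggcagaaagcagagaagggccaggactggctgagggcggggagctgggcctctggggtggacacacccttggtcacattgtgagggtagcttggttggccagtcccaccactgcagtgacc
TUBB: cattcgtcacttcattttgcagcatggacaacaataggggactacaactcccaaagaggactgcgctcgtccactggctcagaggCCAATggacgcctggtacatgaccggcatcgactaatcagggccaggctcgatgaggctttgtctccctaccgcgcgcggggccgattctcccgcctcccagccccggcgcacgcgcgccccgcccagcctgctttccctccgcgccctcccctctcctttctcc
TUBB4B: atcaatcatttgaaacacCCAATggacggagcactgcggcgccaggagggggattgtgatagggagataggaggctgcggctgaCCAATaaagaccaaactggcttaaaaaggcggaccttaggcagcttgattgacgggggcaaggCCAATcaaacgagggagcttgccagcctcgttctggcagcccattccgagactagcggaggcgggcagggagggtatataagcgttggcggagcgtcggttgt
The letters CCAAT stood at -165 from the start site of TUBB and at -232, -166 and -103 from that of TUBB4B. It was present on either strand in 7 of the 13 windows, belonging to 5 of the 9 genes (TUBA1A, TUBA1C, TUBB, TUBB4B and TUBB6), against 32.0% of all 35116 promoter windows of this length. A pair of TUBA1C windows overlaps and shares 1 CCAAT, so that with overlapping windows merged it was in 6 of 12 stretches. The windows behind the 32.0% were not merged. The TUBB1 window held no CCAAT. On either strand it also lacked ACCACA, bound by RUNX factors, GATAA, bound by GATA factors, TGAGTCA, bound by AP-1 and NF-E2, and TATAAA, the core of the TATA box. These other motifs occur in 11.0%, 20.4%, 4.20% and 10.7% of all windows, and no match in the printed windows overlapped another. A match describes these letters only.

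The arrays were alike in overall brightness, with a median intensity over all probe sets of 77.8 to 83.3. Background was set on each array at the 95th percentile of 612 negative control probe sets and lay between 161 and 263 in intensity units. Between 5874 and 7083 genes were above it. Precision is limited by the number of arrays. The identity of the lines was checked against marker genes. All 11 measured erythroid markers were above background in K562 with IM or the combination, 10 with OR21 and 9 in the control, while 1 of 11 was above it on each KBM5 array. Of 9 myeloid markers, 1 or 2 were above background in K562 and 5 to 7 in KBM5. Lymphoid markers were above background in 0 or 1 of 7 cases in K562 and 1 or 2 in KBM5, and 4 of 6 epithelial markers were above it in K562 (EPCAM, KRT8, KRT18 and KRT19) against 1 in KBM5 (KRT8).

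**Figure D1:**
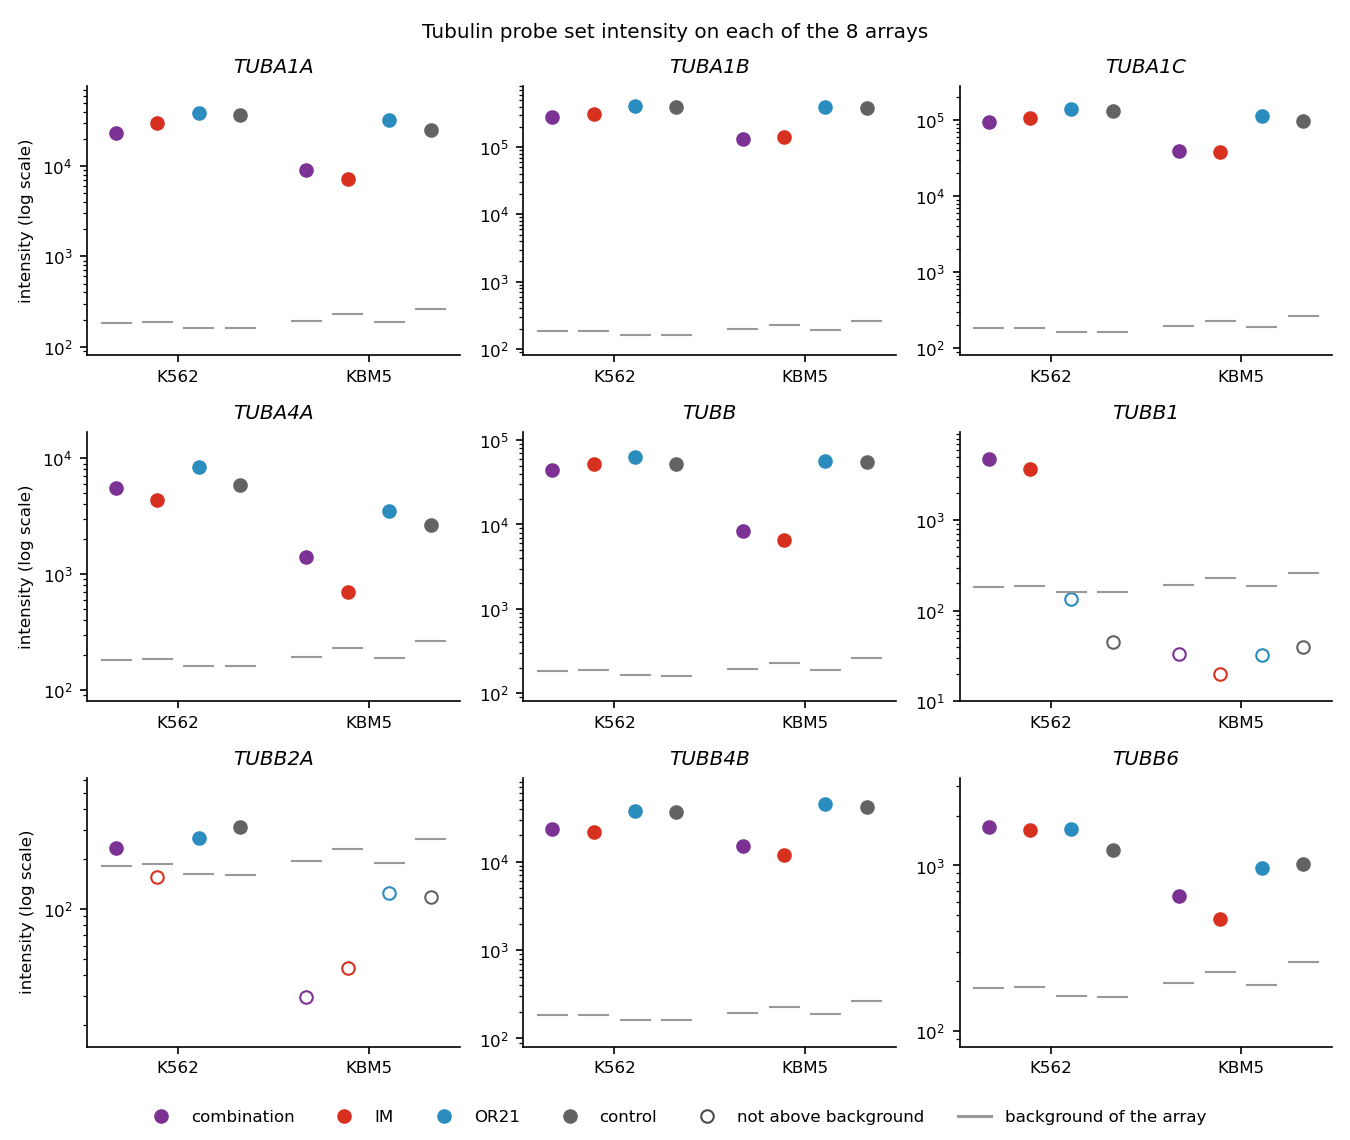
Probe set intensity (log scale, 1 panel a gene) of the 9 measured tubulin isotypes on each of the 8 arrays, with the combination, IM, OR21 and control from left to right in each line. Open points were not above the background of their array, drawn as a grey line. TUBB1 was above background on the K562 IM and combination arrays and on no other, and the other isotypes had lower values on the KBM5 arrays with IM than on those without.

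IM was compared with its absence within each line, in 2 array pairs (IM against control, and the combination against OR21). In KBM5 cells, 7 of the 9 measured isotypes were above background, and all 7 fell with IM. TUBB fell the furthest. The 4 proliferation-linked isotypes all fell, as did TUBA4A, TUBA1A and TUBB6. TUBB1 and TUBB2A were below background on all 4 KBM5 arrays, and TUBB2A was called lower there, which makes 8 calls of 9. A call means an adjusted p below 0.05 by limma, fitted to all genes with Benjamini-Hochberg adjustment. By that rule 21.4% of all genes were called with IM in KBM5 (10.8% higher and 10.6% lower). The median difference of the 9 isotypes was -1.63 on the log2 scale, beside 0.03 over all genes.

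TUBB, a beta tubulin expressed in nearly all dividing cells, had intensities of 6471 with IM and 8458 with the combination in KBM5, against 56869 with OR21 and 54345 in the control. Both arrays with IM lay below both arrays without it, at 11.9% and 14.9% of the matched array. With IM it fell by 2.91 ± 0.25 on the log2 scale (SE, limma adjusted p = 2.87e-05). TUBB4B, another widely expressed beta tubulin, had 11913 and 15201 on the IM and combination arrays, against 44782 with OR21 and 41696 in the control. Its log2 difference was -1.68 ± 0.23 (adjusted p = 0.000536, limma), and again the 2 sets of arrays did not overlap.

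The alpha tubulins TUBA1B and TUBA1C, which pair with these beta tubulins, were among the brightest probe sets. TUBA1B had 141655 with IM and 130938 with the combination in KBM5, against 401632 with OR21 and 378020.5 in the control. Its log2 difference was -1.52 ± 0.23 (adjusted p = 0.00100, limma). TUBA1C had 38123 with IM and 39610.5 with the combination, against 112147 with OR21 and 98645 in the control. The 2 arrays with IM were close to each other for both genes and far below the 2 without IM. The log2 difference of TUBA1C was -1.44 ± 0.23 (adjusted p = 0.00144, limma).

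TUBA1A, an alpha tubulin best known from neurons, had 7203 with IM and 9044 with the combination in KBM5, against 32367 with OR21 and 25082 in the control. Its log2 difference was -1.82 ± 0.24 (adjusted p = 0.000377, limma). TUBA4A had 701 with IM and 1397 with the combination, against 3519 with OR21 and 2659.8 in the control, a log2 difference of -1.63 ± 0.25 (adjusted p = 0.000981, limma). Both genes had lower values on both arrays with IM than on either array without it.

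TUBB6, a beta tubulin of many tissues, had 478 with IM and 654 with the combination in KBM5, against 960.2 with OR21 and 1022 in the control. Its fall was the shallowest of the 7 (log2 difference -0.82 ± 0.25, limma adjusted p = 0.0390), and the call was lost when any one of 6 arrays was left out (the 4 of K562, the KBM5 control and the KBM5 IM array), with adjusted p up to 0.303. TUBB2A, a beta tubulin abundant in the brain, had 44.1 and 29.4 with IM and the combination, against 126 with OR21 and 118 in the control. It was called lower (limma adjusted p = 0.00129), but all 4 values were below background, so no fall was measured and no fold is given. In bulk RNA, fewer cells carrying a transcript and less of it per cell cannot be told apart, and this applies to every fall and rise given here.

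In K562 cells TUBB1 rose with IM, and none of the other 8 isotypes passed the same test. IM called 13.4% of all genes in this line (5.34% higher and 8.05% lower), near the 11.1% that 1 of 9 makes. The median difference of the 9 isotypes was -0.46 on the log2 scale, beside 0.07 over all genes, and 7 of the 9 had an estimate below 0.

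TUBB1 had intensities of 3715 with IM and 4765 with the combination in K562, against 136 with OR21 and 45.4 in the control. Both arrays with IM were far above background (186 and 182) and both without it were below it. The level with IM was at least 26.0-fold higher (limma adjusted p = 1.04e-05), and no exact size or rank can be given against values below background. With the 99th percentile of the negative controls as background, the bound was at least 2.63-fold. In KBM5, TUBB1 had 20.0 with IM and 33.4 with the combination, against 32.6 with OR21 and 39.6 in the control. All 4 values were below background, so no fold is given, and the difference was not called (limma adjusted p = 0.397).

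The 4 proliferation-linked isotypes had lower values with IM in K562 as well, but by amounts that did not pass the test. TUBB4B had 21435 with IM and 23593 with the combination, against 37691 with OR21 and 36919.6 in the control. Its log2 difference of -0.73 ± 0.23 was the closest to a call (adjusted p = 0.0662, limma; 95% interval -1.25 to -0.21). TUBA1B had 307716 and 278833 on the IM and combination arrays, against 406061 with OR21 and 401232 in the control, a log2 difference of -0.46 ± 0.23 (adjusted p = 0.239, limma). TUBA1C had 106173 with IM and 93569.9 with the combination, against 140943 with OR21 and 130731 in the control, a log2 difference of -0.45 ± 0.23 (adjusted p = 0.262, limma). For these 3 genes both arrays with IM lay below both arrays without it. When limma was moderated with an intensity trend and robust fitting, TUBB4B, TUBA1B, TUBA1C and TUBA1A were called lower in K562 too (adjusted p = 0.00220, 0.00488, 0.0204 and 0.0291).

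TUBB, which showed the steepest fall in KBM5, had 51514 with IM and 43942 with the combination in K562, against 62839.8 with OR21 and 52555 in the control. The IM array stood at 98.0% of the control and the combination array at 69.9% of the OR21 array. The log2 difference was -0.27 ± 0.25 (adjusted p = 0.546, limma; 95% interval -0.82 to 0.27). Of the other isotypes, TUBA4A had 4370.3 with IM and 5539 with the combination, against 8455 with OR21 and 5876 in the control (log2 difference -0.52 ± 0.25, limma adjusted p = 0.215). TUBA1A had 29664 with IM and 23341 with the combination, against 38568 with OR21 and 36842 in the control, with a log2 difference of -0.52 ± 0.24 (limma adjusted p = 0.196).

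TUBB6 had 1629 with IM and 1695 with the combination in K562, against 1652 with OR21 and 1232 in the control. The groups overlapped, with the OR21 array between the 2 arrays with IM, and the log2 difference was 0.22 ± 0.25 (adjusted p = 0.642, limma). TUBB2A had 155 with IM, below background, and 234 with the combination, against 266 with OR21 and 310.2 in the control (log2 difference -0.59 ± 0.28, limma adjusted p = 0.213). Only TUBB1 and TUBB4B had an unadjusted p under 0.05 for IM in K562, 2 of the 9 genes, beside 4689 of all 17687 genes.

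**Figure D2:**
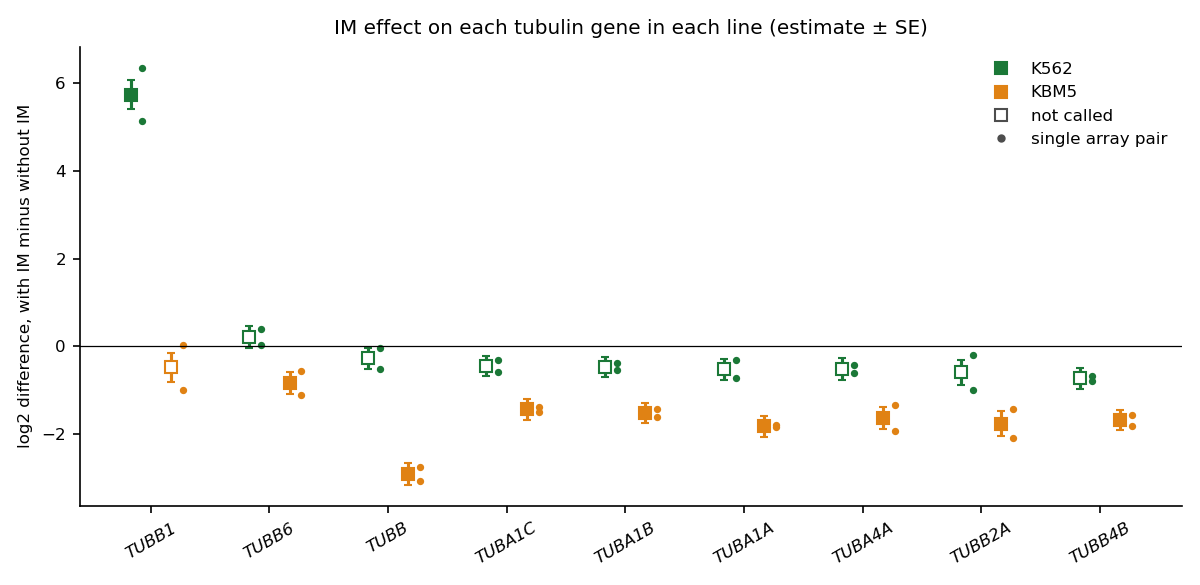
Log2 difference with IM minus without IM for each measured tubulin isotype in K562 (green) and KBM5 (orange), with squares and bars as estimate ± SE and small dots as the 2 single array pairs. Open squares were not called at a limma adjusted p under 0.05. TUBB1 in K562 is drawn at its fitted 5.74, which is no measured size because both arrays without IM were below background, and all KBM5 estimates lie below 0, down to -2.91 for TUBB. TUBB1 and TUBB2A were below background on all KBM5 arrays.

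The difference between the lines in the IM effect was tested in the same model. The IM effect was higher in K562 than in KBM5 for 3 of the 9 isotypes, TUBB1, TUBB and TUBA1A, against 10.2% of all genes called in either direction (4.9% higher and 5.25% lower in K562). TUBB1 was called (limma adjusted p = 9.57e-05), but it was below background on 6 of 8 arrays, the 4 of KBM5 and the K562 arrays without IM, so the size of its difference is not known. For TUBB the difference was 2.64 ± 0.35 (limma adjusted p = 0.00135; 95% interval 1.87 to 3.41).

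For TUBA1A the difference between lines was 1.30 ± 0.34 (limma adjusted p = 0.0353), and this call was lost when any 1 of the 8 arrays was left out, with adjusted p between 0.0627 and 0.279. The other 6 isotypes had differences in the same direction, from 0.95 for TUBB4B to 1.17 for TUBB2A, with limma adjusted p between 0.0728 and 0.102. TUBB2A was below background on every KBM5 array, so its 1.17 is no measured size. The next highest was 1.11 for TUBA4A. All 9, with TUBB1 and TUBB2A among them, had an unadjusted p under 0.05, beside 4096 of all 17687 genes. With the intensity trend and robust fitting, 8 of the 9 were called. Among the proliferation-linked isotypes the intervals of the difference were 0.33 to 1.78 for TUBA1B, 0.26 to 1.73 for TUBA1C and 0.22 to 1.68 for TUBB4B, all at 95%.

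TUBB1 was then set against each proliferation-linked isotype by the log2 ratio of the 2 probe sets on the same array. TUBB1 was held at background on the K562 arrays without IM, so the shift of the ratio is a bound. IM moved the ratio there by at least 5.43 against TUBB4B, 5.16 against TUBA1B, 5.15 against TUBA1C and 4.97 against TUBB on the log2 scale. These bounds rest on the TUBB1 bound of at least 26.0-fold and depend on the background chosen. With the 99th percentile of the negative controls as background, the TUBB1 bound was only 2.63-fold. The bounds on the ratio would then be much lower, and they were not computed at that background. In KBM5, where TUBB1 was below background on all 4 arrays, no shift of the ratio was measured. An exact two-sided permutation test over arrays within lines, on intensities that include these values below background, gave p = 0.0556 for each of the 4 (0.0556 after adjustment over them), the smallest that 36 rearrangements allow, so this design could not reach the threshold.

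With the lines taken as repeats of each other, IM lowered 1 of the 9 isotypes, TUBB4B (log2 difference -1.21 ± 0.24, limma adjusted p = 0.0357), where 7.63% of all genes were called (4.87% lower). That call was lost when any one array was left out and after quantile normalization. The other 3 proliferation-linked isotypes had -0.99 ± 0.26 (TUBA1B), -0.94 ± 0.25 (TUBA1C) and -1.59 ± 0.54 (TUBB), with adjusted p of 0.0682, 0.0718 and 0.131 by limma. TUBB1 had 2.63 ± 1.23 (adjusted p = 0.253, limma), an average over a line in which it rose and one in which it was below background, so the size is not exact.

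The level of each isotype was also compared between the lines at matched treatment. All 9 estimates were higher in K562, and 6 were called (TUBA1A, TUBA1C, TUBA4A, TUBB1, TUBB2A and TUBB6), in a comparison that called 32% of all genes (17% higher and 15% lower in K562). TUBA4A differed most clearly, with a lowest value of 4370.3 in K562 and a highest of 3519 in KBM5, so that the lines did not overlap (log2 difference 1.76 ± 0.28, limma adjusted p = 0.00338). TUBB6 was likewise higher on every K562 array (1232 to 1695) than on any KBM5 array (478 to 1022), with a log2 difference of 1.05 ± 0.27 (limma adjusted p = 0.0248).

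TUBB2A was above background on 3 of 4 K562 arrays and on none of KBM5, at least 1.08-fold higher in K562 (limma adjusted p = 0.00514). TUBB1 was above background on 2 of 4 K562 arrays and on none of KBM5, at least 2.65-fold higher as a mean over the treatments (limma adjusted p = 0.0384). TUBA1A (1.05 ± 0.31, limma adjusted p = 0.0412) and TUBA1C (0.86 ± 0.25, limma adjusted p = 0.0380) were called as well. Leaving out any 1 of the 4 arrays that held IM, alone or in the combination, left only 2 of the 6 calls, and the calls of TUBA1A, TUBA1C, TUBB1 and TUBB6 were those lost. The TUBA1A call was also lost without either control array, and the TUBB6 call without either OR21 array. TUBB4B had the nearest levels, with a log2 difference of 0.26 ± 0.24 (adjusted p = 0.490, limma; 95% interval -0.32 to 0.85), and in the control and OR21 arrays its value was lower in K562 than in KBM5.

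OR21 alone called no isotype in either line, where 0.0905% of all genes were called in K562 and 0.543% in KBM5. At an unadjusted p under 0.05 there was 1 of 9 in each line, beside 863 of all 17687 genes in K562 and 2220 in KBM5. In K562 it was TUBB1, with a log2 difference of 0.97 ± 0.34 (unadjusted p = 0.0161, limma adjusted p = 0.850). Its OR21 and control values, 136 and 45.4, were both below background. In KBM5 it was TUBA4A, with 0.70 ± 0.25 (unadjusted p = 0.0178, limma adjusted p = 0.298). TUBA4A had higher values with OR21 in 4 of 4 array pairs, by 0.34 to 0.99 on the log2 scale, and 0.57 ± 0.28 over both lines (limma adjusted p = 0.999).

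The combination was set against control over both lines, and no isotype was called, with 0.198% of all genes called. At an unadjusted p under 0.05 there were 5 of 9 isotypes, beside 2806 of all 17687 genes. On the log2 scale the differences were -1.05 ± 0.35 for TUBB4B, -1.03 ± 0.36 for TUBA1B and -0.90 ± 0.35 for TUBA1C. They were -1.47 ± 0.76 for TUBB and 3.23 ± 1.74 for TUBB1, and limma adjusted p ran from 0.214 to 0.435. The TUBB1 value is no measured size, since TUBB1 was below background on both control arrays and on the KBM5 combination array. Against IM alone, the combination called 0 isotypes (0 at an unadjusted p under 0.05) and 0% of all genes by limma. The 9 differences ran from -0.13 for TUBA1B to 0.67 for TUBA4A, with SE from 0.35 to 1.74. Against OR21 alone it called 0 isotypes and 0.221% of all genes by limma. There 6 of the 9 isotypes and 2515 of all 17687 genes had an unadjusted p under 0.05. The OR21 by IM interaction lay between -0.23 and 0.20 for the 9 isotypes, with SE from 0.49 to 2.47, the widest for TUBB1. By limma 0 were called, 0 had an unadjusted p under 0.05 and 0% of all genes were called. With SE of that size, the lack of a call does not show that an interaction was absent. These comparisons share control and single-drug arrays with each other and with the effects of IM above.

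The genes whose values followed TUBB1 most closely were found by Pearson correlation of log2 intensity over the 8 arrays, among 5695 genes above background on at least 2 arrays and with an SD of at least 0.5. The 5 highest were CA1, a carbonic anhydrase of red cells (r = 0.994), EIF2AK1, the heme-regulated eIF2 alpha kinase (0.990), C17orf99 (0.989), PMPCB, a subunit of the mitochondrial processing peptidase (0.987), and CYP3A5, a drug-metabolising enzyme (0.985). CA1 had 2076 with IM and 4064 with the combination in K562, against 91.6 with OR21 and 18.6 in the control, and 12.1 to 18.2 on the KBM5 arrays. TUBB1, CA1, C17orf99 and CYP3A5 were below background on all arrays but the K562 IM and combination arrays and passed the filter through those 2, so that a high r among them follows from that shared pattern. EIF2AK1 was above background on every array, with 18075 and 18488 on the K562 arrays with IM and the combination, against 7440.3 with OR21 and 5623 in the control. The other 8 isotypes had r with TUBB1 between -0.06 for TUBB4B and 0.744 for TUBB6.

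The genes most like TUBB were MCM3, a subunit of the replicative helicase (0.996), TOP2A, a topoisomerase of dividing cells (0.994), NCAPG, a condensin subunit (0.994), FEN1, a nuclease that processes replication intermediates (0.993), and RAD51AP1, a recombination factor (0.992). MCM3 had 192 with IM, below background, and 249 with the combination in KBM5, against 3876 with OR21 and 4052 in the control. In K562 it had 2629 and 2730.3 with IM and the combination, against 3953 with OR21 and 3438 in the control. RAD51AP1 was below background on both KBM5 arrays with IM. TUBB and these genes all had their lowest values on those arrays, so that a high r among them follows from that shared pattern. Among the other isotypes, r with TUBB was 0.979 for TUBA1A, 0.978 for TUBA1C and 0.970 for TUBA1B, while TUBA4A had 0.896, TUBB2A 0.882, TUBB4B 0.881 and TUBB6 0.857. All these points share the same 8 arrays, and r is given as a description.

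**Figure D3:**
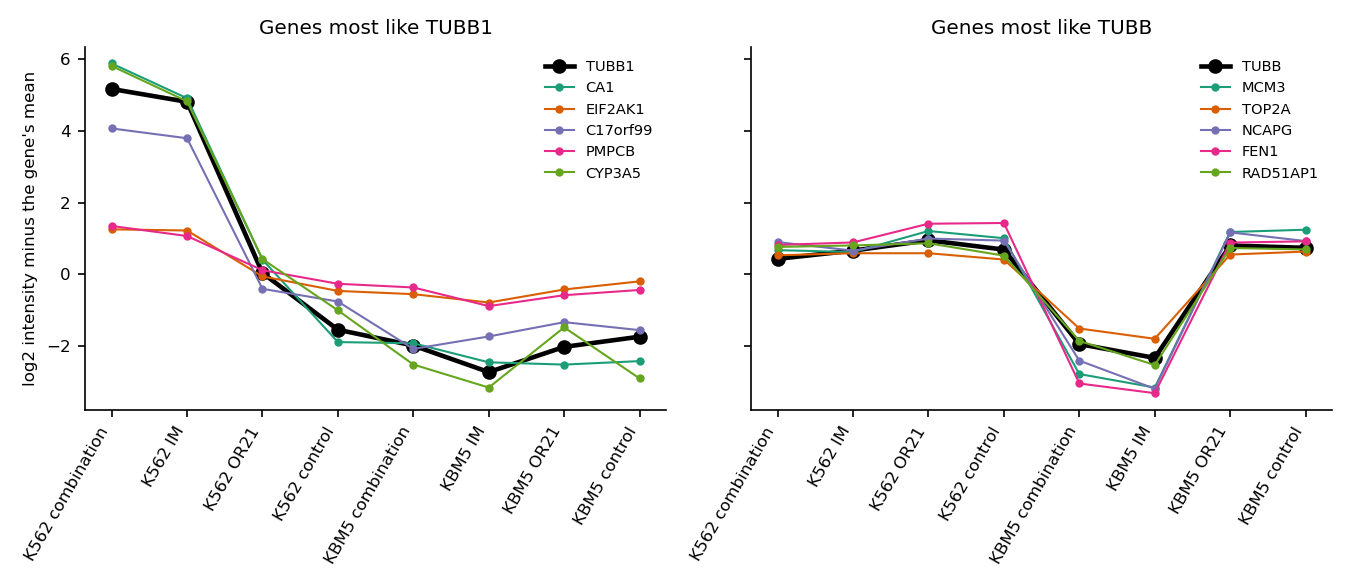
Log2 intensity minus the mean of the gene over the 8 arrays, for TUBB1 (left, black) and TUBB (right, black) with the 5 genes most like each, on the arrays in the order combination, IM, OR21 and control within each line. The TUBB1 set is high on the K562 arrays with IM and the TUBB set is low on the KBM5 arrays with IM. TUBB1 was above background on those 2 K562 arrays alone.

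Markers of other kinds moved with these results. Of 12 proliferation markers none was called with IM in K562, where 13.4% of all genes were, with a median of -0.22 on the log2 scale. Their summed intensity was 71434 with IM and 66868 with the combination, against 84854 with OR21 and 86279 in the control. The largest K562 differences were -0.89 for CCNB1, a mitotic cyclin (limma adjusted p = 0.0617), and -0.82 for RRM2 (limma adjusted p = 0.180). In KBM5 all 12 fell with IM, beside 10.6% of all genes called lower, with a median of -3.29. RRM2, a ribonucleotide reductase subunit, fell by 5.05 with 1 of its 2 arrays with IM above background, TYMS, thymidylate synthase, fell by 4.84, and MCM2, a helicase subunit, was at least 12.2-fold lower with IM. The summed intensity of the 12 markers in KBM5 was 5587 with IM and 8790.1 with the combination, against 65207 with OR21 and 68523 in the control. The difference between lines was called for 11 of the 12, beside 10.2% of all genes. The part of these markers in the tubulin results was not tested.

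Beside the rise of TUBB1 in K562, other genes of platelets and megakaryocytes were mostly below background. Of 16 measured, 2 or 3 were above background on any one K562 array and 3 on at least 1 of them. IM called 3 higher in K562, where 13.4% of all genes were called (5.34% higher and 8.05% lower). They were ITGB3 and PF4, an integrin subunit and a chemokine of platelets, and RAB27B, a granule transport protein. All 3 were below background on all 4 K562 arrays, so they give no fold. GP6, the platelet collagen receptor, fell by 1.15 with 1 of its 2 arrays with IM above background. Each of these 4 calls was lost with any one of the K562 arrays left out. The summed intensity of the 16 genes in K562 was 2180 with IM and 2620.1 with the combination, against 2302 with OR21 and 2055 in the control. In KBM5, IM called 21.4% of all genes. It raised F13A1, the coagulation factor XIII A chain, by 2.65 and lowered ABCC4 by 1.00 on the log2 scale. CLEC1B was called higher although it was below background on all 4 arrays. THBS1, thrombospondin, was called higher with IM. Of the KBM5 arrays, only the combination was above background for THBS1, so no fold is given. OR21 called THBS1 higher in KBM5 as well (limma adjusted p = 0.0490), and no fold is given for the same reason. The calls of CLEC1B and ABCC4 were lost without the KBM5 control or the KBM5 IM array.

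Erythroid markers moved with TUBB1 in K562, where IM raised 9 of 11, beside 5.34% of all genes called higher. The anion exchanger SLC4A1 of red cells had at least 9.81-fold higher intensity, ALAS2, the erythroid enzyme that starts heme synthesis, rose by 5.96 ± 0.57 and HBB, beta globin, by 3.89 ± 0.29 on the log2 scale. The summed intensity of the erythroid markers was 1763577 with IM and 1746355 with the combination, against 843627 with OR21 and 261401 in the control. In KBM5, TFRC, the transferrin receptor, fell by 3.44 and no erythroid marker rose. The part of the erythroid markers in the TUBB1 result was not tested.

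Factors known to act at TUBB1 in megakaryocytes, NFE2, GATA1, RUNX1 and FLI1, were not called with IM in K562. Their log2 differences were 0.47 ± 0.28 for NFE2, -0.05 ± 0.24 for GATA1 and -0.03 ± 0.27 for RUNX1, with limma adjusted p of 0.324, 0.930 and 0.968, and FLI1 was below background. In KBM5, where TUBB1 was below background, NFE2 (above it on 1 of 2 arrays without IM) rose by 2.08 ± 0.28 and FLI1 by 1.08 ± 0.23 (limma adjusted p = 0.000429 and 0.00671), while GATA1 was below background on all 4 arrays.

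The remaining marker lists changed as follows, beside the 13.4% of all genes called with IM in K562 and the 21.4% in KBM5. The 1 of 9 myeloid and 1 of 7 lymphoid markers called in K562 are near the share of all genes. In K562, IM lowered 1 of 9 myeloid markers (SPI1, a myeloid transcription factor, at least 1.87-fold, a call lost with any one of the K562 arrays left out), 1 of 7 lymphoid ones (CD3D, at least 3.33-fold) and 2 of 6 epithelial ones (KRT8 fell by 2.36 and KRT18 fell by 2.24 on the log2 scale). In KBM5 it raised 5 of 9 myeloid markers, among them CSF3R by 3.49 and LYZ by 3.47 on the log2 scale, with AZU1 by 1.29, and lowered MPO, measured above background on 1 of 2 arrays of each side, a call lost with any one of the KBM5 arrays left out. It raised 1 of 7 lymphoid markers, CD4, by 1.50, and changed none of 6 epithelial ones by the same limma rule.

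Other genes of the tubulin system are set beside the shares of all genes called with IM, 13.4% in K562 and 21.4% in KBM5. Of 8 further alpha and beta tubulin genes, IM lowered TUBB8 in K562 (12.5%) by 1.23 ± 0.26 (limma adjusted p = 0.0113). In KBM5 it lowered TUBB8 and TUBB4A (25.0%), by 1.14 and 0.84 on the log2 scale. The list median was -0.50 in K562 and -0.37 in KBM5. On any one array, 3 to 5 of the 8 were above background in K562 and 1 to 4 in KBM5. Both medians thus include differences among values below background. Of 11 measured genes of the gamma, delta and epsilon tubulins and of nucleation, 5 fell and 1 was called higher in KBM5 (54.5%), with a median of -0.66. The 1 called higher, TUBGCP6, was below background on every KBM5 array. TUBE1, epsilon tubulin, fell by 2.12, TUBG1, gamma tubulin, by 1.80 and NEDD1, which recruits the gamma tubulin complex, by 1.40. In K562 1 of them fell (9.09%), TUBGCP4, a gamma tubulin complex subunit, by 0.90 on the log2 scale.

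Folding factors for tubulin moved both ways. Of 13 measured tubulin cofactors and prefoldin subunits, 2 rose and 2 fell with IM in K562 (30.8%, where 13.4% of all genes were called), and in KBM5 3 rose and 2 fell (38.5%, where 21.4% were). TBCE, a cofactor that assembles the alpha and beta pair, fell by 1.31 and PFDN2, a prefoldin subunit, by 0.87 in K562, where PFDN5 rose by 0.99. In KBM5 TBCB, a cofactor that binds alpha tubulin, fell by 1.98 and VBP1, a prefoldin subunit, by 1.82, whereas TBCC, which acts in the last folding step, rose by 1.77. The list median was 0.04 in K562 and -0.32 in KBM5.

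Of 17 enzymes that modify tubulin, IM raised 2 in K562, SIRT2, a deacetylase, by 1.79 and SVBP, the partner of the detyrosinating vasohibins, by 1.47 on the log2 scale. That is 11.8% of the enzymes, near the 13.4% of all genes. In KBM5 it called 4 higher and 2 lower (35.3%, beside 21.4% of all genes): TTLL3, a glycylase, rose by 2.25 and TTLL12 fell by 2.11, and VASH1, a vasohibin, was called higher although below background on all 4 arrays. Of 17 measured proteins of microtubule dynamics, 1 rose and 2 fell in K562 (17.6%), MAPRE3, a plus-end binding protein, by 1.59, MAP1S fell by 1.12 and KIF2A, a depolymerising kinesin, by 0.84. In KBM5 2 were called higher and 6 lower (47.1%). KATNA1, counted among the 6, was below background on every KBM5 array. FIGNL1, a severing-protein relative, was at least 6.10-fold lower, TPX2, a spindle assembly factor, fell by 2.45 and KIF2C, a mitotic depolymerising kinesin, by 2.38. The median of the modifying enzymes was 0.18 in K562 and 0.00 in KBM5, and that of the dynamics proteins -0.17 in K562 and -0.13 in KBM5. Of the K562 calls in these tubulin lists, those of TUBB8, TUBGCP4, TBCE, PFDN2, PFDN5, MAP1S and KIF2A were lost with any one of the 4 K562 arrays left out, and those of SIRT2, SVBP and MAPRE3 without the K562 control or IM array. In KBM5 the calls of TUBB4A and TUBB8 were lost without the KBM5 OR21 or combination array, that of TUBB4A also with any one of the 4 K562 arrays left out, and that of NEDD1 without the control or the IM array. Sizes are not exact for TUBB8 and VBP1 in KBM5, each with 1 of 2 arrays with IM above background, nor for F13A1 and CSF3R there, each with 1 of 2 arrays without IM above it.

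**Figure D4:**
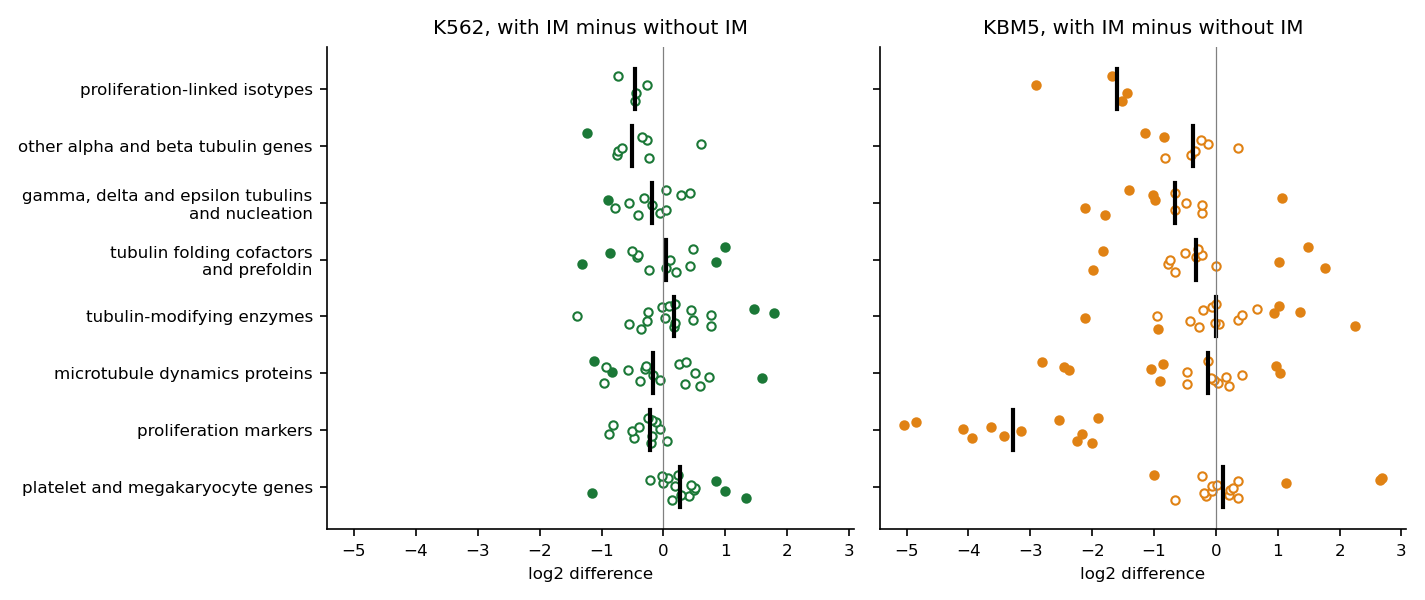
Log2 difference with IM minus without IM for the measured genes of 8 lists in K562 (left) and KBM5 (right), with 1 point a gene, filled where called at a limma adjusted p under 0.05, and a bar at the median of the list. The proliferation-linked isotypes and the proliferation markers lie at medians of -0.45 and -0.22 in K562, and at -1.60 and -3.29 in KBM5. Some filled points, such as ITGB3 and PF4, were below background on both sides.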

How the data were processed

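Total RNA of K562 and KBM5 cells was labelled with biotin and hybridised to expression arrays, per the labels. The deposited table holds 1 linear intensity per probe set (24351 in all) and array. How the authors summarised and normalized these intensities is not given in the sources used here. Gene symbols came from the supplied probe annotation: 17709 probe sets had 1 symbol, giving 17687 genes, and the brightest probe set was used for the 20 genes with several. Symbols were matched exactly.

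Intensities were analysed as log2(intensity) without further normalization. If all arrays on 1 side of a comparison were at background, the fold is a bound, set against the background of each array or the dim value, whichever was higher. limma 3.58.1 (R 4.3.3) was fitted to all genes. Within each line, separate effects of OR21 and IM were fitted (2 residual and 8.309 prior degrees of freedom), so the 2 disjoint array pairs of each drug in a line served as repeats. The model of both lines used line and treatment (3 residual, 3.765 prior). P-values cover the spread among these arrays alone. Each procedure was tested on simulated data.

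The members and lists were chosen with earlier results of these data known. All tubulin members are described; from each other list the 3 called genes with the largest difference in a line, or else 2 values without a call, were named, together with the 5 genes most like TUBB1 and TUBB. RAB27B, ABCC4, MPO and the TUBA3 genes were named after their values were seen. Promoter sequences are from RefSeq (GRCh38.p14). Alternatives were quantile normalization, brighter genes only, an intensity trend with robust moderation, log2(intensity + 16), the mean of probe sets, each array left out, the line left out, a common OR21 by IM term, and a 99th percentile background.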

Additional observations from a re-analysis of the deposited data

Results flagged for a closer look

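The effect of IM differed between the lines for 3 of the 9 measured tubulin isotypes by the test of the difference itself (K562 minus KBM5, limma, on the log2 scale). TUBB1, the platelet beta tubulin, had a fitted difference of 6.22, which is no measured size: its intensity with IM in K562 was at least 26.0-fold higher, and it was below background on 6 of 8 arrays. TUBB differed by 2.64, with an estimate of -0.27 in K562 and -2.91 in KBM5. TUBA1A differed by 1.30, with an estimate of -0.52 in K562 and -1.82 in KBM5. With 1 array a group, no array could be tested for standing apart from its group.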

How the results depend on the processing

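TUBB1 in K562 was called higher with IM, and TUBB in KBM5 lower (-3.07 to -2.75 on the log2 scale), in all alternatives. The count of isotypes called with IM in K562, 1 as reported, was 2 with the brighter genes only, 5 with an intensity trend and robust moderation and 2 with log2(intensity + 16), and 1 to 2 with 1 array left out (TUBB4B was added without any one of the KBM5 arrays, adjusted p = 0.0420 by limma). For the difference between lines, 3 as reported, it was 5 after quantile normalization, 6 with the brighter genes only, 8 with the trend and 6 with log2(intensity + 16), and 2 to 3 with 1 array left out. For IM in both lines, 1 as reported, it was 2 with the trend and 0 with the line left out of the model, and 0 to 1 with 1 array left out. For K562 minus KBM5, 6 as reported, it was 2 to 5 with 1 array left out and 4 to 6 under the others. In KBM5 the count with IM was 8, and 7 to 8 with 1 array left out. The counts with OR21 in each line and for the combination minus control were 0 in every alternative. TUBB1 with IM in KBM5, -0.48 as reported and below background, was 0.037 without the KBM5 control or the KBM5 IM array (range -0.99 to 0.037). Of the factors known to act at TUBB1, GATA1 with IM in K562, -0.05 as reported, was 0.12 after quantile normalization and ranged from -0.12 to 0.024 with 1 array left out (0.024 with either K562 array of OR21 missing). RUNX1, -0.03 as reported, was 0.15 after quantile normalization and ranged from -0.48 to 0.43. Neither was called. Over all single genes named, 679 of 816 values with 1 array left out kept their direction and side of the threshold, 116 lost a call, 15 gained one and 6 changed sign; of 601 values under the other alternatives these counts were 558, 17, 24 and 2. Why these values moved was not tested, beyond the fewer arrays or genes that an alternative held. With the 99th percentile as background, TUBB1 stayed above it on 2 K562 arrays, TUBB6 on 2 and TUBB2A on 0. In KBM5, TUBB6 was then above it on 0 arrays, so its fall with IM was not measured at that background. TUBA4A was above it on 2 KBM5 arrays, the control and OR21, and its fall with IM there was at least 2.73-fold. Also at that background, FIGNL1 and MCM2 in KBM5 were at least 1.15-fold and 2.29-fold lower with IM. No bound was left for SLC4A1, CD3D and SPI1 with IM in K562, or for TUBA3E with OR21 there. The same held for TUBB1 and TUBB2A in K562 minus KBM5. No paired analysis was possible because all arrays carry the same replicate number, so no block of replicates can be formed; the array pairs within a line are part of the model itself.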

Other observations

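A testis-type alpha tubulin gene outside the chosen set responded to OR21 in K562. TUBA3D had intensities of 174 with OR21 and 73.0 with the combination, against 16.1 with IM and 19.0 in the control, and was called higher with OR21 (log2 difference 2.69 ± 0.29, limma adjusted p = 0.00617), where 0.0905% of all genes were called. It was above background on the OR21 array alone, so the size is not exact, and the call was lost without the K562 control or OR21 array (limma adjusted p = 0.297) and with log2(intensity + 16) (0.289). TUBA3E, a close relative, had 447 with OR21 and 203 with the combination, against 124 with IM and 157 in the control, at least 1.74-fold higher, and was not called (limma adjusted p = 0.612). In KBM5 TUBA3D was below background on all 4 arrays and TUBA3E had a log2 difference of -0.41 ± 0.30 (limma adjusted p = 0.631). TUBA3C, whose coding sequence is nearly that of TUBA3D, had 708 with OR21 and 712 with the combination in K562, against 562.4 with IM and 784 in the control (log2 difference 0.10 ± 0.26, limma adjusted p = 0.999). The TUBA3 genes were singled out after their values were seen.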
